A study of Mus musculus with 8 samples.

Results

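The transcripts followed here are those of 10 regulators and receptors of the blood and endothelial lineages, namely the transcription factors *Tal1*, *Lmo2*, *Gata1*, *Gata2*, *Runx1* and *Fli1* and the surface proteins *Kdr*, *Flt1*, *Tek* and *Pecam1*. They were taken as all non-control probes that the arrays list under these names, which gave 13 of the 55681 probes and 10 of the 36406 gene names. E14Tg2A.4 mouse ES cells, a single cultured line, were either left untreated or exposed for 72 h to all-trans retinoic acid (RA) at 1 µM in medium lacking leukemia inhibitory factor, a protocol meant to start neuronal differentiation. RNA of 4 biological replicates of each condition was labelled with Cy3 from an oligo-dT primer and hybridized to Agilent arrays, 1 RNA sample per array. RA was given together with that change of medium, and effects of the 2 cannot be told apart.

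Blood and endothelial cells arise close to each other in the embryo, from mesoderm that carries the VEGF receptor Kdr. Tal1 binds DNA as a helix-loop-helix protein, Lmo2 bridges it to GATA factors, and together with Runx1 and the ETS factor Fli1 they form the core of the circuit that starts blood formation. Flt1 and Kdr receive VEGF, Tek receives angiopoietins, and Pecam1 is an adhesion molecule that endothelial cells, platelets and undifferentiated mouse ES cells carry on their surface.

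Levels are given as log2 intensity minus the array's own 75th percentile, so 0 is a bright probe and negative values are common. Brightness also depends on the probe, so levels were compared between conditions and not between probes. Between 56.7% and 62.7% of the spots of an array were well above background and none was saturated. A gene was called higher or lower when limma gave a Benjamini-Hochberg adjusted p under 0.05 over all probes and its means differed by more than 1.5-fold, and each gene was represented by its probe of highest mean over the 8 arrays. Where a condition had no array with the probe well above background, only a bound is given, "at least N-fold". The bound compares the brighter mean with the weakest signal counted as above background on each dim array. The median log2 change over all probes was -0.28 on this scale, and it was -0.0026 after quantile normalization. Under that scaling 48.4% of the called probes were higher in place of 37.4%.

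The untreated arrays carried the pattern of ES cells, and that pattern receded with RA. All 12 pluripotency genes examined fell, among them *Pou5f1* (log2 change -5.54), *Nanog* (-4.55) and *Sox2* (-2.58). Without RA-treated replicate 2 the change of *Pou5f1* was -6.17. Of 12 primitive endoderm genes 11 rose and none fell, while 3 of 11 mesoderm genes rose and 3 fell. Neural genes split in the same way, with 3 of 11 higher and 3 lower, and of 11 trophoblast genes 5 were higher and 2 lower. Of all genes 13.9% were called higher and 22.1% lower, or 20% and 29.1% of those well above background on all arrays of a condition. The summed pluripotency signal, in multiples of the 75th percentile, was 546 to 750 on untreated arrays and 87.0, 133.7, 62.7 and 56.6 on RA-treated arrays 1 to 4. The cells were assayed in bulk, so a change in the number of cells that express a gene and a change in RNA per cell cannot be told apart. Of 24 endothelial surface and structural genes, 15 were well above background on all 8 arrays, the untreated ones included, and 4 on none. Those 4 were *Cdh5*, which encodes the VE-cadherin of endothelial junctions, *Emcn*, for the surface protein endomucin, *Lyve1* and *Sele*.

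RA treatment divided the 10 genes. *Flt1*, *Gata2* and *Fli1* rose, *Tal1*, *Gata1*, *Tek* and *Pecam1* fell, and *Kdr*, *Lmo2* and *Runx1* were not called. Thus 3 of 10 were called higher, where 13.9% of all genes on the array were, and 4 of 10 were called lower, where 22.1% of all genes were. Either call was made for 36.1% of all genes, and for 49.1% of the 23377 genes that, like all 10 here, were well above background on all 4 arrays of at least 1 condition (20% higher and 29.1% lower). For each of the 7 called genes the conditions did not overlap. The same held over the whole array for 4782 of the 5074 genes called higher and 7375 of the 8057 called lower. Among all genes, called or not, all RA-treated arrays lay above all untreated ones for 15.3% and below them for 25.3%. The median log2 change of the 10 genes was 0.19, against -0.28 for all genes. Leaving out any single array changed none of the 7 calls.

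**Figure D1:**
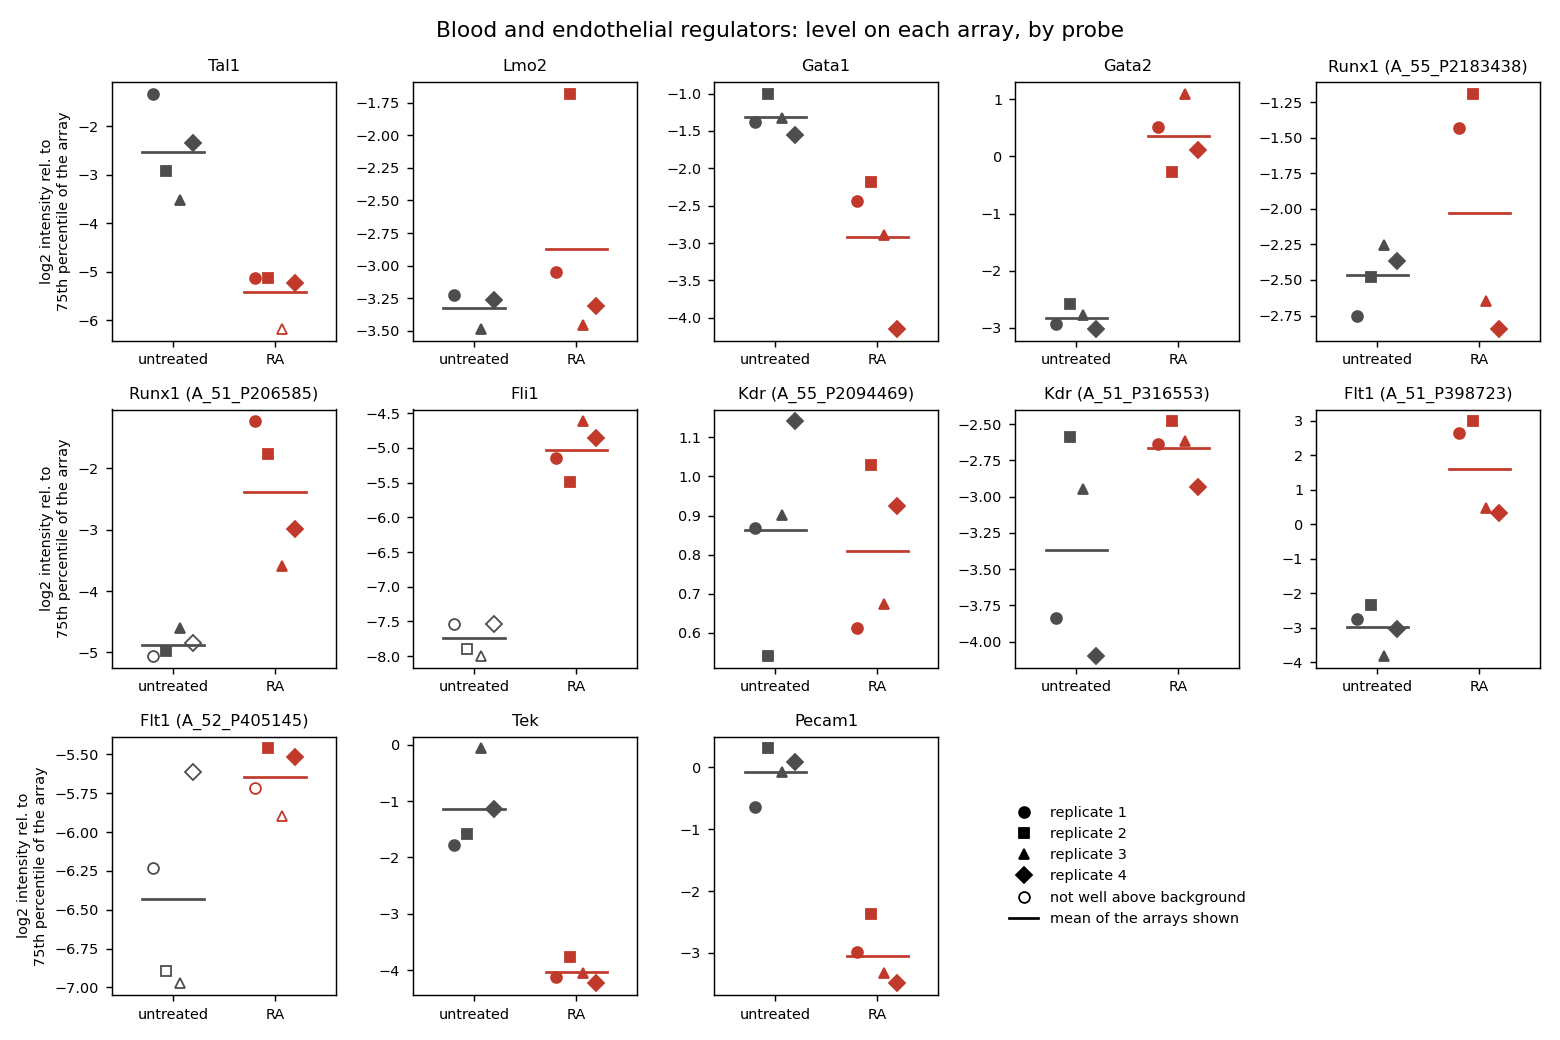
Level of each of the 13 probes on each array, as log2 intensity relative to the array's 75th percentile (vertical axes differ between panels), with untreated arrays in grey and RA-treated arrays in red. Marker shapes give the replicate number, open markers are arrays on which the probe was not well above background, and lines are means of the arrays shown. *Gata2*, *Fli1* and the brighter *Flt1* probe lie higher on all RA-treated arrays, *Tal1*, *Gata1*, *Tek* and *Pecam1* lie lower, and the conditions overlap for *Lmo2*, *Kdr* and the brighter *Runx1* probe.

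Among the GATA factors the pair moved in opposite directions. *Gata2* (NM_008090, probe at chr6:88156362-88156421 on the plus strand, mm9) encodes the factor that acts in blood stem and progenitor cells and in endothelium. Its levels were -2.94, -2.58, -2.78 and -3.01 on untreated arrays 1 to 4 and 0.52, -0.27, 1.09 and 0.12 on RA-treated arrays. Every treated array was more than 2 log2 units above every untreated one. The mean went from -2.83 ± 0.19 to 0.37 ± 0.58 (SD, n = 4 each), a 9.15-fold rise (log2 change 3.19, SE 0.28, limma adjusted p = 4.27e-05). *Gata1* (NM_008089, chrX:7536392-7536451, minus strand) encodes the factor that drives red cell and megakaryocyte maturation. It stood at -1.38, -1.01, -1.33 and -1.55 in untreated cells and at -2.43, -2.19, -2.89 and -4.15 after RA. Replicate 4 was the lowest of the treated arrays, and the treated values were more spread than the untreated ones. *Gata1* fell 3.03-fold (log2 change -1.60, SE 0.39, limma adjusted p = 0.0112). On each slide taken alone, with 2 arrays a condition, the log2 change was -1.93 and -1.26 and missed the call (limma adjusted p = 0.0783 and 0.0728). The opposite direction of the pair was found on both slides, as *Gata2* was called higher on slide 1 and on slide 2 (3.18 and 3.21).

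The sequences around the start sites of these 2 genes are shown because the pair moved in opposite directions. They are the RefSeq windows on GRCm38.p6 from 250 bases before to 50 bases after an annotated start, written 5′ to 3′ on the gene's strand. They lie at chr6:88193641-88193940 (plus strand) for the first of 2 *Gata2* starts and at chrX:7967861-7968160 (minus strand) for *Gata1*. Capitals would mark the motifs named below, and these windows hold none.
*Gata2*, first start: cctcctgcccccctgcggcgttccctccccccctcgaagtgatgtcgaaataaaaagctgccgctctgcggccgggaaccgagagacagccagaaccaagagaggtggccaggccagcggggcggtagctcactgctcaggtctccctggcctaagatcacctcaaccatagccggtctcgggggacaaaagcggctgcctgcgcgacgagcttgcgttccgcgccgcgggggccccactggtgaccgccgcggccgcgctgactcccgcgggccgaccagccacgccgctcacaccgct
*Gata1*: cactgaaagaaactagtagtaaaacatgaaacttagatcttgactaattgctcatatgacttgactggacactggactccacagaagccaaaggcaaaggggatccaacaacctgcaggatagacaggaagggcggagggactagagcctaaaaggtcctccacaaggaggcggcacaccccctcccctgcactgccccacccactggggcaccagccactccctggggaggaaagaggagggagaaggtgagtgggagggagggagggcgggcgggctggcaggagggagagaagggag
The *Gata2* window holds 32 CpG dinucleotides and 69.3% G and C, and the *Gata1* window 4 CpGs and 57.3%. The second *Gata2* start has 29 CpGs. A median window among the 32851 of the mouse table has 7.

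*Tal1* fell and its partner *Lmo2* showed no call. The *Tal1* probe (NM_011527, chr4:114744219-114744278, plus strand, mm9) read -1.34, -2.94, -3.53 and -2.34 on untreated arrays and -5.13, -5.14, -6.18 and -5.24 after RA. Untreated replicate 1 was the brightest of all, and on RA-treated replicate 3 the probe was not well above background. The fall was 7.39-fold (log2 change -2.89, SE 0.46, limma adjusted p = 0.00109), larger than the spread between replicates. Its size depends on the processing, since the normexp background correction gave -1.40 and the authors' deposited log2 values -1.23. Within slide 1 the fall of -2.75 was not called (limma adjusted p = 0.0529).

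The bridging protein gene *Lmo2* (NM_008505, chr2:103821857-103821916, plus strand) gave -3.22, -3.48 and -3.26 on untreated arrays 1, 3 and 4 and -3.05, -1.68, -3.46 and -3.31 after RA. Only RA-treated replicate 2 left the range of about 0.5 log2 units that the other arrays shared. The spot on untreated replicate 2 was marked as an outlier by the scanner software and was left out, so the untreated mean rests on 3 arrays. The log2 change was 0.45 (SE 0.41, limma adjusted p = 0.393, 95% interval -0.51 to 1.40). Without RA-treated replicate 2 it was 0.05, and with the outlier spot kept, at -0.75, it was -0.19.

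*Runx1*, which is needed for the first blood stem cells to leave the endothelium, was measured by 2 probes that gave different calls. The brighter probe (NM_001111022, chr16:92605785-92605844, minus strand, mm9) read -2.75, -2.48, -2.25 and -2.37 in untreated cells and -1.43, -1.19, -2.65 and -2.84 after RA. Treated replicates 1 and 2 lay above all untreated arrays, and treated replicates 3 and 4 lay within or below their range. The log2 change of 0.43 (SE 0.38, limma adjusted p = 0.361, 95% interval -0.42 to 1.29) was not called. The dimmer probe (NM_009821, chr16:92604413-92604472) read -5.06, -4.98, -4.61 and -4.85 in untreated cells, where it was well above background on 2 arrays, and -1.23, -1.76, -3.59 and -2.99 after RA. Here all treated arrays were above all untreated ones, with replicates 1 and 2 again the highest, and the rise was 5.58-fold (log2 change 2.48, SE 0.47, limma adjusted p = 0.00307). The mean of both probes rose by 1.46 and was called (limma adjusted p = 0.0197). Which transcripts each probe reports was not analysed here.

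The ETS factor gene *Fli1*, active in endothelium and megakaryocytes, came up from below detection. Its probe (NM_008026, chr9:32229857-32229916, minus strand) was not well above background on any untreated array (-7.53, -7.90, -8.00 and -7.53) and on all 4 treated ones (-5.15, -5.49, -4.62 and -4.86). The level after RA was therefore at least 1.53-fold higher (limma adjusted p = 2.93e-05). All treated arrays were still dim. With normexp the log2 change was 0.40, under the 1.5-fold limit, and the call was lost.

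The VEGF receptors differed from each other. *Flt1* is VEGF receptor 1, which binds VEGF-A and placental growth factor tightly and signals weakly. By its brighter probe it had the largest fitted rise of the 10 genes, although *Fli1* has only a lower bound. That probe (NM_010228, chr5:148373791-148373850, minus strand, mm9) read -2.76, -2.33, -3.82 and -3.03 in untreated cells and 2.64, 2.99, 0.47 and 0.33 after RA. The treated arrays formed 2 levels, replicates 1 and 2 near 3 and replicates 3 and 4 near 0, and both levels were above every untreated array. From -2.99 ± 0.63 to 1.61 ± 1.40 (SD, n = 4 each), the rise was 24.2-fold (log2 change 4.59, SE 0.65, limma adjusted p = 0.000574). With normexp it was 3.98 on the log2 scale and still called. The difference between the treated pairs does not follow the slides, since each slide held 1 array of each pair, and within slides the rise was 4.77 and 4.41. On the same arrays the summed pluripotency signal was higher in treated replicates 1 and 2 than in 3 and 4 (above). Its part in the *Flt1* and *Runx1* levels was not tested.

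A second *Flt1* probe, designed to the transcript AK005502 and placed 92.2 kb away (chr5:148465976-148466035), stayed dim. It read -6.23, -6.90, -6.97 and -5.61 in untreated cells, well above background on no array, and -5.72, -5.46, -5.90 and -5.52 after RA, well above it on 2 arrays. It was not called (limma adjusted p = 0.0714), and no fold is given. The mean of both *Flt1* probes, at 2.69, includes this dim probe and gives no exact size for the rise.

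*Kdr*, VEGF receptor 2, which transmits most of the growth signal of VEGF, was not called by either of its probes. The brighter one (NM_010612, chr5:76330395-76330454, minus strand) read 0.87, 0.54, 0.90 and 1.14 in untreated cells and 0.61, 1.03, 0.67 and 0.92 after RA. The conditions covered the same range, and the log2 change of -0.05 (SE 0.18, limma adjusted p = 0.819) had a 95% interval of -0.45 to 0.35, within 1.5-fold in either direction. The other probe (chr5:76329309-76329368), printed 10 times on each array, gave -3.83, -2.59, -2.95 and -4.10 in untreated cells and -2.63, -2.48, -2.62 and -2.93 after RA. Its spots on an array differed by an SD of 0.0393 to 0.198, while the untreated arrays ranged over more than 1 log2 unit. Untreated replicates 1 and 4 were the low ones and the conditions overlapped (log2 change 0.70, SE 0.33, limma adjusted p = 0.129, 95% interval -0.05 to 1.45). Between arrays of the same number the treated one was higher by 1.20, 0.11, 0.33 and 1.17. With the replicate number as a block the probe was still not called (limma adjusted p = 0.0750).

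*Tek* encodes Tie2, the receptor through which angiopoietins steady blood vessels. Its probe (NM_013690, chr4:94540624-94540683, plus strand, mm9) read -1.78, -1.58, -0.06 and -1.14 in untreated cells and -4.12, -3.76, -4.05 and -4.23 after RA. Untreated replicate 3 was the highest, and the treated arrays lay within 0.5 log2 units of each other. The fall was 7.47-fold (log2 change -2.90, SE 0.35, limma adjusted p = 0.000237). The adhesion molecule gene *Pecam1* (NM_001032378, chr11:106540864-106540923, minus strand) went from -0.65, 0.30, -0.07 and 0.08 to -2.98, -2.37, -3.33 and -3.49. All untreated arrays were more than 1.5 log2 units above all treated ones, and the fall was 7.76-fold (log2 change -2.96, SE 0.29, limma adjusted p = 7.72e-05). With normexp the log2 change of *Tek* was -2.14, in the authors' deposited log2 values that of *Pecam1* was -2.28, and both calls held.

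Among the receptor genes of the 10, *Flt1* and *Tek* had the largest fitted moves in each direction. Their start sites are shown together with the first of 2 starts of *Tal1*. They lie on GRCm38.p6 at chr5:147725962-147726261 (minus strand), chr4:94739039-94739338 (plus strand) and chr4:115056176-115056475 (plus strand), and capitals mark a GATA motif (AGATAA or TGATAA on either strand) or an E-box of the kind Tal1 binds (CAGCTG or CAGATG on either strand).
*Flt1*: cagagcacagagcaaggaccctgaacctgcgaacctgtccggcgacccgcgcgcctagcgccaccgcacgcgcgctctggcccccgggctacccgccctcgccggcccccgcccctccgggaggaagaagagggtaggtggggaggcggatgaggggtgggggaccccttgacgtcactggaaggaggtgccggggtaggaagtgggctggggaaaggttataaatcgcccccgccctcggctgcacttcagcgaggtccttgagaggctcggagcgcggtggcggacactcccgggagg
*Tek*: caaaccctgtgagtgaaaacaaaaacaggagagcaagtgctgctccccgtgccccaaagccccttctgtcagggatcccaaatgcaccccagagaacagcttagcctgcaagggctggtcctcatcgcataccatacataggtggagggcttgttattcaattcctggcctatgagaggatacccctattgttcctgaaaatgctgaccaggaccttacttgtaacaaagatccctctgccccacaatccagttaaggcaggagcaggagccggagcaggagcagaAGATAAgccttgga
*Tal1*, first start: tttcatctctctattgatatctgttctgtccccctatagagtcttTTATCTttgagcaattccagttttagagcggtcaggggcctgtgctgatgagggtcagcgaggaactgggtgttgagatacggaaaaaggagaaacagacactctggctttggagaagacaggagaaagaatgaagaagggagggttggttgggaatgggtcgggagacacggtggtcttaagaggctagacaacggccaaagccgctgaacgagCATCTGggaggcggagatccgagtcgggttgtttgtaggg
RefSeq windows were found for 7 of the 10 genes, 10 windows in all. A GATA motif was present in the *Tek* and first *Tal1* windows and in 18.6% of all mouse windows. The E-box was present in the first *Tal1*, second *Gata2* and *Kdr* windows and in 30.6% of all. The ETS motif CCGGAA was found in the *Kdr* and second *Runx1* windows (14.9% of all), and the Runx motif TGTGGT occurred 2 times in the first *Runx1* window (16.8% of all), with both strands searched. Direct repeats of AGGTCA spaced by 5 or by 2 bases, the sites that RA receptors prefer, were in none of the 10 windows and in 0.0091% of all for either spacing. CpG counts were 29 for *Flt1* and 3 for *Tek*, 11 and 22 for the *Tal1* starts, 19 for *Kdr*, and 2 and 35 for the *Runx1* starts. These matches describe the letters of short windows and say nothing of binding.

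**Figure D2:**
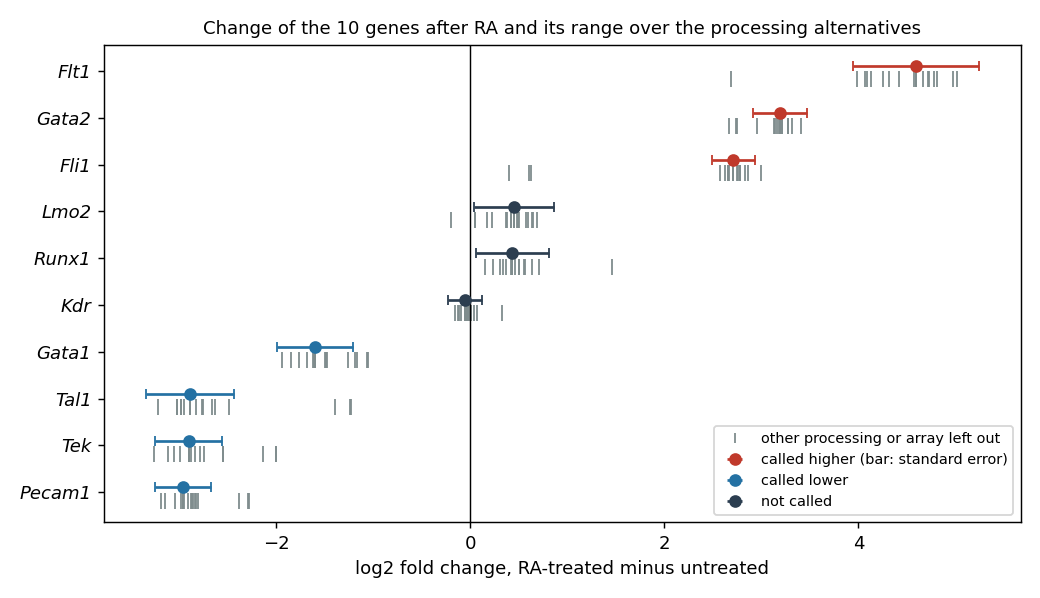
Log2 fold change of each of the 10 genes, RA-treated minus untreated (circles with standard errors, red for called higher, blue for called lower, dark for not called), with a grey tick below for each alternative processing or left-out array. For *Fli1* the circle is the fitted value, and only a bound of at least 1.53-fold is supported. The 7 called genes stay on 1 side of 0 under every alternative, from *Flt1* at 4.59 to *Pecam1* at -2.96, while *Kdr* and *Lmo2* have ticks on both sides.

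The SD over RA-treated arrays was larger than over untreated arrays for 8 of the 13 probes (61.5%), and for 31.0% of all probes. It was smaller for *Tal1* (0.51 against 0.93), *Tek* (0.20 against 0.77), both *Kdr* probes and the dim *Flt1* probe. The widest treated spreads were those of *Flt1* (1.40), the dimmer *Runx1* probe (1.09), *Gata1* (0.87) and the brighter *Runx1* probe (0.84). Treated replicates 1 and 2 were the higher pair for the brighter *Flt1* probe, both *Runx1* probes, *Gata1*, *Pecam1*, *Lmo2* and *Tal1*, and replicate 3 was the highest for *Gata2* and *Fli1*.

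The genes around the 10 were read from 4 lists of 97 further genes on the array, namely transcription factors, VEGF and angiopoietin signalling, endothelial surface and structure, and blood cells. Over the lists together 28 genes were called higher and 28 lower, 1 of each with a probe well above background on no array, and 41 were not called. These counts stand beside 13.9% of all genes higher and 22.1% lower, or 20% and 29.1% of the genes well above background on all arrays of a condition, and a median log2 change of -0.28 over all genes. Of the transcription factors 15 of 32 were higher and 7 lower, with a median of 0.74, and of the endothelial surface and structural genes 3 of 24 were higher and 12 lower, with a median of -0.62. Blood cell genes, with 3 of 25 higher, 5 lower and a median of -0.30, lay close to the values over all genes. For 9 of these 25 the probe was well above background on no array. Medians were also taken without genes dim in both conditions, with genes dim in 1 at their bounds, or as unchanged where they had none. They were then 0.84, -1.09 and -0.13 for these 3 lists.

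**Figure D3:**
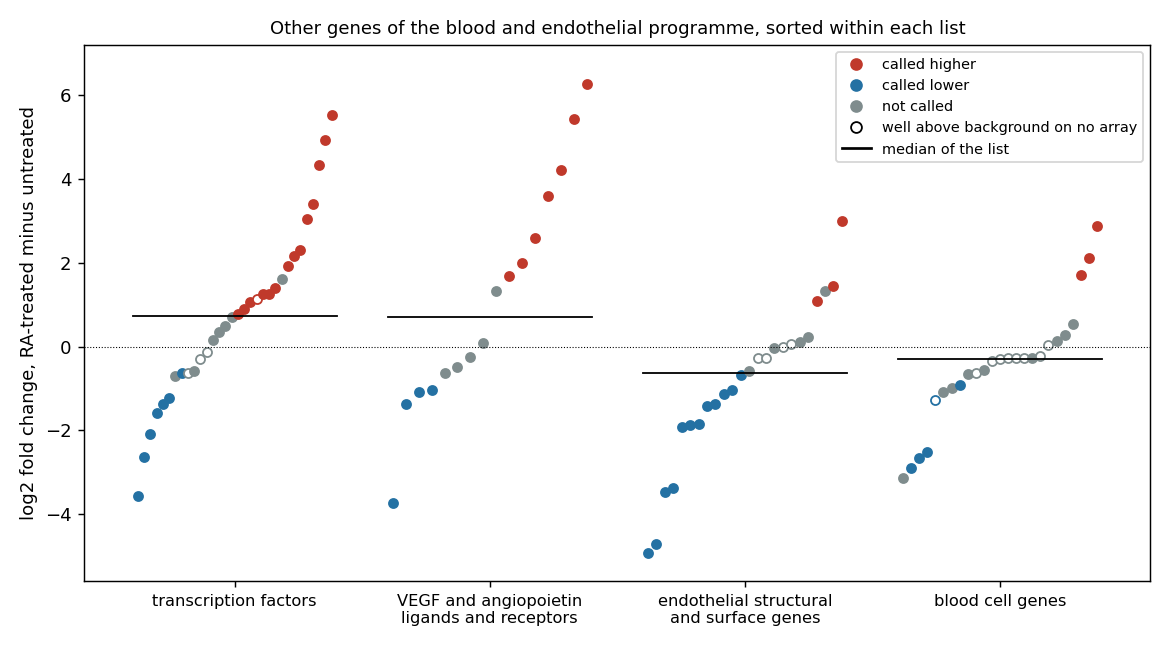
Log2 fold change, RA-treated minus untreated, of the other blood and endothelial genes, sorted by size within each of 4 lists, with red for called higher, blue for called lower and grey for not called. Open circles are genes well above background on no array, and horizontal lines are list medians, at 0.74 for the 32 transcription factors, 0.70 for the 16 VEGF and angiopoietin genes, -0.62 for the 24 endothelial genes and -0.30 for the 25 blood cell genes. Changes of genes that are dim in 1 condition are drawn at their fitted values.

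Among the transcription factors, *Meis1*, a homeobox partner of Hox proteins in blood stem cells, rose 45.6-fold (log2 change 5.51, SE 0.25). *Gata3*, the GATA factor of T cells and also of trophoblast and neurons, rose 20.1-fold, and the founding ETS factor *Ets1* 10.5-fold. *Gfi1*, a repressor in blood stem cells, was not well above background on any untreated array and was at least 9.90-fold higher after RA. In the other direction *Etv2*, the ETS factor that commits mesoderm to blood and endothelium, fell 11.8-fold, from 0.32 to 1.30 on untreated arrays to -3.21 to -2.32 on treated ones (log2 change -3.56, SE 0.28, limma adjusted p = 2.40e-05). *Myb*, which maintains blood progenitors, fell 6.23-fold, the erythroid factor *Klf1* 4.21-fold and *Bcl11a*, a repressor of embryonic and fetal globin genes, 2.98-fold. *Klf1* was well above background on 1 of 4 treated arrays, and in the deposited log2 values its change of -0.54 was not called. With normexp the log2 changes were 1.65 for *Gfi1*, which is below its bound, 2.79 for *Ets1* and -2.95 for *Etv2*, and within slide 1 *Myb* and *Bcl11a* were not called.

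In the VEGF and angiopoietin group, 7 of 16 genes rose and 4 fell, with a median log2 change of 0.70, or 0.04 with dim genes at their bounds. *Angpt4*, dim on untreated arrays, had no usable bound and was counted as unchanged, and the 0.04 rests in part on it. Of the ligands of Flt1, *Vegfa* and *Pgf* rose and *Vegfb* was not called. *Vegfa*, chosen like *Pgf*, *Vegfb*, *Angpt2* and *Tie1* after its values were seen, read 0.67, 0.63, 0.81 and 1.20 in untreated cells and 2.37, 2.90, 2.97 and 3.07 after RA, a 3.99-fold rise (log2 change 2.00, SE 0.21). *Pgf*, whose product binds Flt1 and not Kdr, rose 3.22-fold, from levels of -3.41 to -2.22 to levels of -1.45 to -1.11. The log2 change of *Vegfb* was 0.08 (SE 0.18, limma adjusted p = 0.748). The co-receptor *Nrp1* was not well above background on any untreated array and was at least 20.2-fold higher after RA, and *Flt4*, VEGF receptor 3, well above background on 2 of 4 untreated arrays, rose 5.99-fold. With normexp the log2 changes were smaller, at 2.57 for *Nrp1*, which is below its bound, and 0.95 for *Flt4*, and both were called. *Figf*, which encodes VEGF-D, a ligand of Flt4, fell 2.11-fold.

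The Tek axis moved in both directions. *Angpt1*, which encodes the ligand that activates Tek, read -4.54, -7.82, -7.87 and -7.40 in untreated cells, well above background on replicate 1 alone, and -0.69, -1.01, -0.69 and -0.16 after RA (log2 change 6.27, SE 0.69, limma adjusted p = 0.000141). This size rests on dim untreated arrays, and it was 3.04 with normexp. Without untreated replicate 1 the gene was still called, but no untreated array measured it and the size has no exact value. Its rise stood beside the fall of its receptor. *Angpt2*, for the ligand that opposes Angpt1 in many settings, changed by -0.24 (SE 0.26, limma adjusted p = 0.472), and the related receptor gene *Tie1* by -0.62 (SE 0.41, limma adjusted p = 0.233), and neither was called. *Ptprb*, which encodes the phosphatase that acts on Tek, fell 2.60-fold. Of the angiopoietin-like genes *Angptl2* was at least 5.07-fold higher, though its log2 change with normexp, 1.00, is below that bound, and *Angptl4* fell 13.2-fold. *Pgf* within slide 1, *Ptprb* within slide 2 and *Figf* within either slide were not called.

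**Figure D4:**
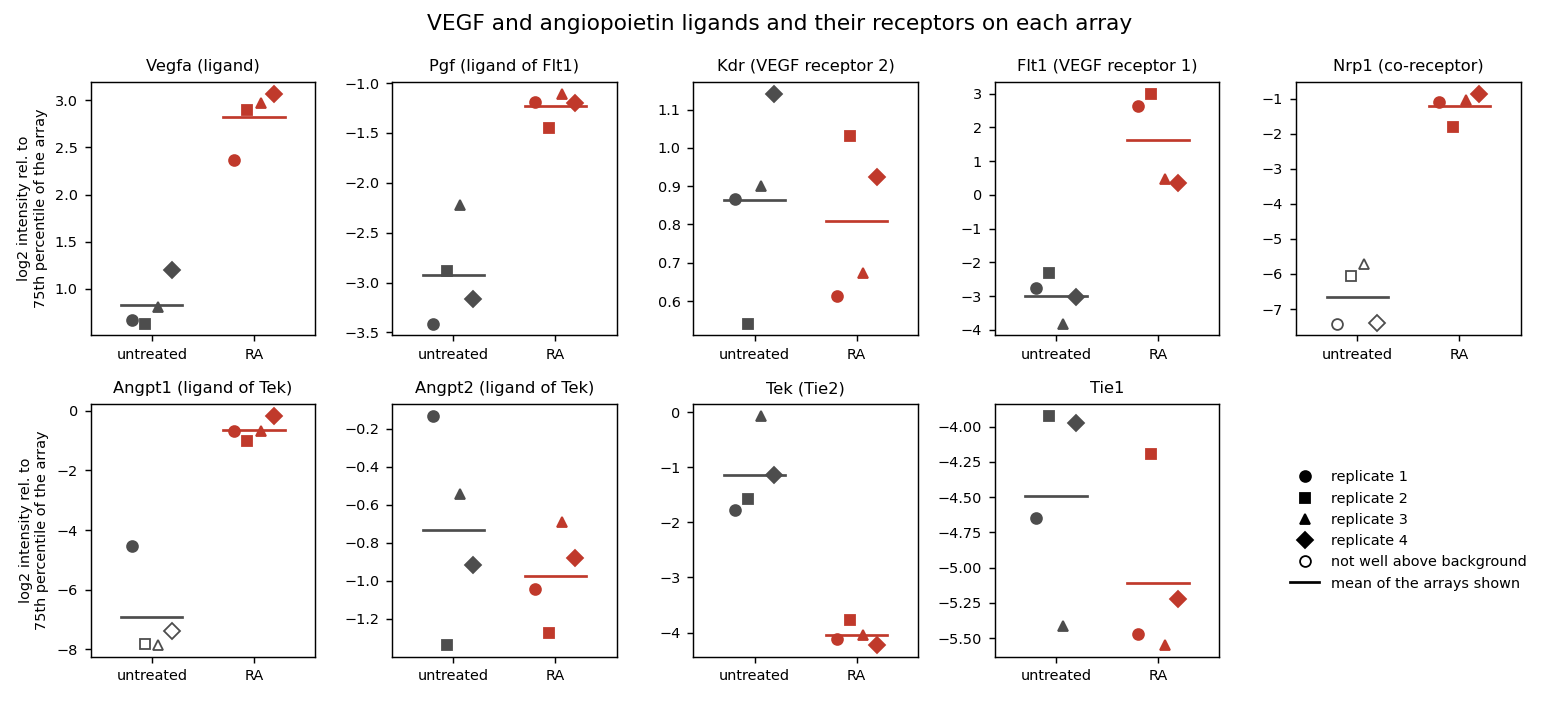
Level of VEGF and angiopoietin ligands and of their receptors on each array, as log2 intensity relative to the array's 75th percentile (vertical axes differ between panels), untreated in grey and RA-treated in red, with open markers where the probe was not well above background and lines at the means. *Vegfa*, *Pgf*, *Flt1*, *Nrp1* and *Angpt1* lie higher on all RA-treated arrays, *Tek* lies lower, and *Kdr*, *Angpt2* and *Tie1* overlap.

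Like *Pecam1* and *Tek*, 12 of the 24 endothelial surface and structural genes fell, where 22.1% of all genes did. *Vwf*, for the clotting protein von Willebrand factor, fell 30.2-fold, the junction gene *Jam2* 26.2-fold, the adhesion gene *Icam2* 11.0-fold and the guidance receptor gene *Robo4* 10.4-fold. All 4 were well above background in every untreated culture, where *Cdh5* and *Emcn* were not. *Ecscr*, for an endothelial surface protein, rose 7.94-fold and *Apln*, for the peptide apelin, 2.11-fold. In the deposited log2 values the changes of *Vwf* and *Icam2* were -3.89 and -1.77, within slides that of *Robo4* was -3.96 and -2.79, and *Apln* was not called with normexp (0.49) or within slide 1.

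The globin genes *Hbb-b1*, *Hbb-b2* and *Hba-x*, the erythroid gene *Alas2* and the pan-leukocyte gene *Ptprc* were well above background on no array. *Hba-a1*, an adult alpha-globin gene with a near-identical copy that its probe may also report, was chosen after its values were seen. It read 3.49 on untreated replicate 1, against -3.65 to -2.45 on the other untreated arrays and -5.53 to -3.92 after RA, and was not called (limma adjusted p = 0.122). *Tal1* was also highest on that array (above), and without it the fall of *Tal1* was -2.49 (limma adjusted p = 0.00144). *Was* and *Vav1*, which act in the cytoskeleton and signalling of blood cells, fell 7.43-fold and 5.68-fold. *Kit*, the stem cell factor receptor of blood progenitors and germ cells, fell 1.90-fold, while its ligand gene *Kitl* rose 3.28-fold. The actin bundler gene *Lcp1* rose 7.29-fold and the hyaluronan receptor gene *Cd44* 4.33-fold. With normexp the log2 changes were -2.01 for *Was*, -1.66 for *Vav1*, 2.20 for *Lcp1* and 1.34 for *Cd44*, all called. *Cd44* within slide 1 and *Kit* within either slide were not called.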

How the data were processed

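Expression arrays of 4 untreated and 4 RA-treated cultures of E14Tg2A.4 ES cells were analysed. For every array the authors deposited the Feature Extraction file of the Agilent scanner software (version 10.7.3.1), in which each spot has a background-corrected intensity, not normalized between arrays, with flags for spots above background and outliers. A table of log2 values was also deposited, with the same distribution on all arrays (median 6.76), whose normalization is not given in the sources used here. Its log2 changes lay close to those of normexp with quantile normalization, as for *Flt1* (4.07 and 4.09) and *Fli1* (0.61 and 0.63). The deposited log2 values are therefore hardly a separate check from that alternative. Arrays have no read depth, and their number limits the precision.

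In R (version 4.3.3) the 75th percentile of the log2 intensity over 59305 non-control spots was subtracted on each array. Outlier spots (124 to 145 per array) and 3671 control spots were left out, and spots of the same probe were averaged. The limma package (version 3.58.1; lmFit, eBayes) compared the conditions over 55681 probes with Benjamini-Hochberg adjustment, at the FDR of 0.05 and fold change above 1.5 that the study used. The steps were tested on simulated data. Names are those of the array design, positions are mm9, and exons and UTRs were not analysed here. All 10 genes matched RefSeq (GRCm38.p6), which was used for the start site windows.

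The genes and lists were chosen with earlier results of these data known. Of the pluripotency list the text names *Pou5f1*, *Nanog* and *Sox2*, its first genes. Of each of the 4 lists of blood and endothelial genes it names up to 4 genes with the largest rise and up to 4 with the largest fall among called genes that were well above background on all 4 arrays of a condition and did not overlap between conditions, and genes named outside this rule are marked, apart from *Cdh5*, *Emcn* and other genes named as dim. *Tcfe2a*, *Plet1* and *Map2* of the lists were not on the array under the names searched. The trophoblast counts, 5 of 11 higher and 2 lower, stand beside 13.9% and 22.1% of all genes.

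Each of 2 slides held 2 arrays of each condition. Replicate numbers 1 to 4 occur in the labels of both conditions. The deviations of same-numbered arrays correlated at 0.186, 0.189, 0.104 and 0.151 over 27493 probes. The highest correlation between different numbers was 0.142, above that of replicate 3. The main fit did not pair the arrays, and pairing by replicate number was fitted only as an alternative, the replicate block. Alternatives were the replicate block, the slide, the scaling, the background correction, the deposited log2 values, a filter on dim probes, a fold change above 2, the mean over the probes of a gene, leaving out each array and, added after seeing the data, keeping outlier spots.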

Additional observations from a re-analysis of the deposited data

Results flagged for a closer look

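Among 101 sets of 4 arrays of 1 condition, for the probes of the 10 genes and of the other genes given with values, *Cdh5* and *Emcn*, 6 held an array that stood apart from the other 3 by Dixon's test, and chance gives about 1 in 20. *Tal1* on RA-treated replicate 3 read -6.18, against -5.24 to -5.13 on the other treated arrays, and the probe was not well above background there. On untreated replicate 1 *Hba-a1* read 3.49 and *Angpt1* -4.54, both above the other untreated arrays. *Vwf* on untreated replicate 3 read 0.64, below the other untreated arrays. *Vegfb* on untreated replicate 4 read 2.02, above the other untreated arrays. *Sox2* on RA-treated replicate 2 read 2.31.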

How the results depend on the processing

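The counts of 3 genes higher and 4 lower among the 10 were unchanged when any single array was left out and with quantile normalization, the deposited log2 values, a percentile over detected probes, a filter on dim probes, a fold limit of 2, the slide as a block, normexp with quantile normalization and outlier spots kept. *Fli1* passes the limit of 2 only by its fitted value, as its bound is 1.53-fold. With the replicate block the counts were 3 and 4, and 28 and 27 for the 97 further genes, and the block changed no call of the 10 or of their 13 probes. With normexp alone 2 were higher, without *Fli1*, and with the mean over probes 4 were, with *Runx1*. Within slide 1, where each condition has 2 arrays, 2 of the 10 were lower, and 18 of the further genes in place of 28. Within slide 2 the counts were 3 and 15. The further genes higher and lower were 29 and 24 with quantile normalization, 26 and 19 both with the deposited log2 values and with normexp and quantile normalization, and the higher ones numbered 20 and 21 within slides 1 and 2. Leaving out single arrays gave 27 to 30 further genes higher and 25 to 29 lower. Only genes that were not called turned direction. *Kdr* gave 0.0672 with the percentile over detected probes, 0.0104 within slide 2 and 0.3235 as the mean of its probes, and -0.1601 to 0.0399 when single arrays were left out. *Lmo2* gave -0.19 with the outlier spot kept, an alternative chosen after seeing the data, and 0.05 with the replicate block. The causes of these shifts were not tested, and the fits within a slide also rest on fewer arrays. Dim signals limit what can be said of *Fli1*, the second *Flt1* probe and the 9 of 25 blood cell genes well above background on no array.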
